A study of Mus musculus with 4 samples.

Results

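The mandible, the tooth-bearing bone of the lower jaw, was compared with the ilium, the blade of the hip bone. The comparison uses 2 of the 4 arrays of the series, 1 for each bone. RNA of both bones came from male C57BL/6 mice aged 35 days, with no genetic change or treatment named in the labels, and the femur and the maxilla of such mice were measured in the same way. The study set these 4 bones side by side as graft materials and asked in which of them markers of the neural crest and of nerve stem cells are found. How many animals each RNA came from is not stated in the labels, nor how far teeth, marrow, muscle and gum were removed. With 1 array for each bone no test was possible, so every fold below describes these arrays and has no replicate check.

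Most of the jaw skeleton forms from cranial neural crest cells, which carry no or few active Hox genes, whereas the hip bone forms from mesoderm in a Hox-expressing part of the trunk. The mandible of the mouse also holds molars and an incisor that grows throughout life, so enamel-forming ameloblasts and dentin-forming odontoblasts work there continuously, fed by an epithelial stem cell niche. The ilium holds red marrow, growth cartilage and the attachments of trunk and hind limb muscles.

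Values are log2 of the ratio of the processed spot signal to the array's own 75th percentile, called relative signal here, and differences are mandible minus ilium on this log2 scale. Of 27596 genes with a value, 20715 were well above background in the brighter of the 2 bones, by the flag that the image analysis program sets, and 18912 in both. A gene counted as higher or lower when it differed by 4-fold or more, a log2 difference of at least 2, and was well above background in the brighter bone. By that rule 1312 genes were higher in the mandible, 6.33% of those that could be counted, and 1022 were lower, 4.93%. At 2-fold the counts were 3341 (16.1%) and 3117 (15.0%). Of the genes at 4-fold, 513 of those higher had no such flag in the ilium and 246 of those lower had none in the mandible. For such a gene the fold is given as a lower bound, written "at least": the brighter signal over the lowest signal that counted as well above background in the other bone, or over the gene's own signal there if that was brighter. Repeated spots of a probe gave an SD of 0.092 for a difference, which is error within an array and leaves out animals and dissection. The median difference over all genes was -0.01, and it became -0.15 with median centring and -0.13 in the deposited series table.

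**Figure D1:**
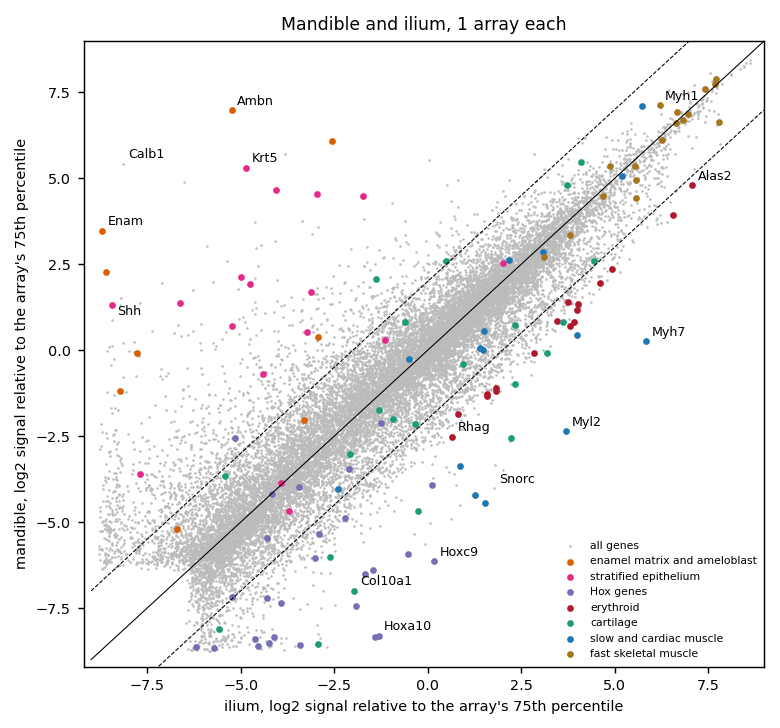
Relative signal (log2, 0 at the array's 75th percentile) in the ilium (x axis) and the mandible (y axis) for genes well above background in 1 or both bones, with 7 gene lists in colour, equality as a solid line and 4-fold as dashed lines. Most enamel and epithelial genes lie above the upper dashed line, and most Hox and cartilage genes and all 17 erythroid genes with a value lie below equality.

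Osteoblast and osteocyte genes differed by less than 4-fold, and more of them were higher in the mandible than lower. Of 17, 17 were well above background in the mandible or the ilium, 14 differences were positive and the median was 0.80. At 2-fold 7 were higher and 0 lower, where 16.1% of all genes were higher. The bone collagen gene Col1a2 had a relative signal of 7.59 in both bones. Col1a1 was at 6.71 in the ilium and 6.63 in the mandible, and Bglap, which encodes osteocalcin, was at 7.55 and 8.06. Phex, an osteocyte gene of phosphate handling, showed the widest gap in the list, 1.80 in the ilium against 3.63 in the mandible, 3.57-fold. Genes of periodontal ligament and tendon ran the same way, with a median difference of 0.84 over 14 genes. Of these, 1 was past 4-fold higher, where 6.33% of all countable genes were. It was the tendon transcription factor gene Mkx, at -1.81 in the ilium and 1.00 in the mandible.

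Most genes of the enamel organ and the dentin gene Dspp were far higher in the mandible, and they held the widest gap measured in both bones. Of 10 enamel genes, 9 of them well above background in 1 bone or more, 7 were higher in the mandible and 0 lower; their median difference was 7.36, or 5.83 with genes not seen in the ilium set to their bound and 3.47 with normexp background correction. Ambn, which encodes the enamel matrix protein ameloblastin, had a relative signal of -5.24 in the ilium and 6.98 in the mandible, 4770-fold (mm8 probe position 89539748 to 89540277 on chromosome 5). Amelx, encoding amelogenin, the main enamel matrix protein, was at -2.56 and 6.07, 395-fold, and its other probe gave 8.65 as the difference. Enam, encoding enamelin, was at 3.48 in the mandible and not well above background in the ilium, at least 987-fold. Mmp20, the protease that cuts enamel proteins early, was at 2.27 in the mandible and at least 425-fold higher. These 4 genes belong to the secretory stage of enamel formation.

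Genes of the later, maturation stage differed less evenly. Amtn, encoding amelotin, was at -0.07 in the mandible, at least 83.9-fold above the ilium, and Odam, made by maturing ameloblasts and by the epithelium that seals gum to tooth, was at -1.19, at least 38.8-fold. Klk4, the late enamel protease, was at -3.30 in the ilium and -2.02 in the mandible, 2.42-fold and short of the threshold. Odaph was not well above background in either bone. Calb1, which encodes the calcium-binding protein calbindin, was at 5.42 in the mandible and had the largest bound of all named genes, at least 3782-fold. Ckmt1, a mitochondrial creatine kinase gene, was at -4.62 in the ilium and 3.74 in the mandible, 329-fold.

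Of 5 dentin and mineralized matrix genes, 1 was past 4-fold. Dspp, encoding the precursor of the dentin sialo- and phosphoproteins, was at -3.81 in the ilium and 5.71 in the mandible, 731-fold (chromosome 5, 104420000 to 104420059, mm8). In the femur it was not well above background. The other 4 are shared with bone, and they differed by -0.05 for Spp1 up to 0.58 for Ibsp. In whole bone samples such as these, fewer cells of a type and less RNA per cell cannot be told apart.

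Most genes of stratified epithelium that could be counted were also far higher in the mandible. Of 21 such genes, 17 were well above background in 1 bone or more, 13 were higher and 0 lower, with a median difference of 4.08, or 3.75 with bounds. The basal keratin gene Krt5 was at -4.86 in the ilium and 5.31 in the mandible, 1152-fold. Its partner Krt14 was at -4.05 and 4.67, 421-fold, and Krt17 at -2.96 and 4.55, 183-fold. Krt15, at 1.37 in the mandible, was at least 228-fold higher, and Serpinb5, a serpin gene of basal epithelium, at least 218-fold. Outside the list, Col17a1, the hemidesmosome collagen that ties basal cells to the basement membrane, was at -5.89 and 3.02, 484-fold, with 7.42 as the difference of its other probe. Lamb3, a chain of the laminin of that same junction, was at -4.46 and 3.06, 184-fold.

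Not all epithelial genes differed. Krt16 was at -3.91 in the ilium and -3.86 in the mandible. Ivl and Krt4, genes of the upper layers, and the desmosome genes Dsg3 and Dsc3 were not well above background in either bone. Krt1, a keratin of cornifying layers, was at -3.70 and -4.67, while another Krt1 probe gave 2.74. The keratin gene Krt6a reached at least 7.23-fold and Krt13 13.5-fold, and the adhesion genes of epithelia in general, Cdh1 (27.7-fold) and Epcam (13.0-fold), were higher as well.

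**Figure D2:**
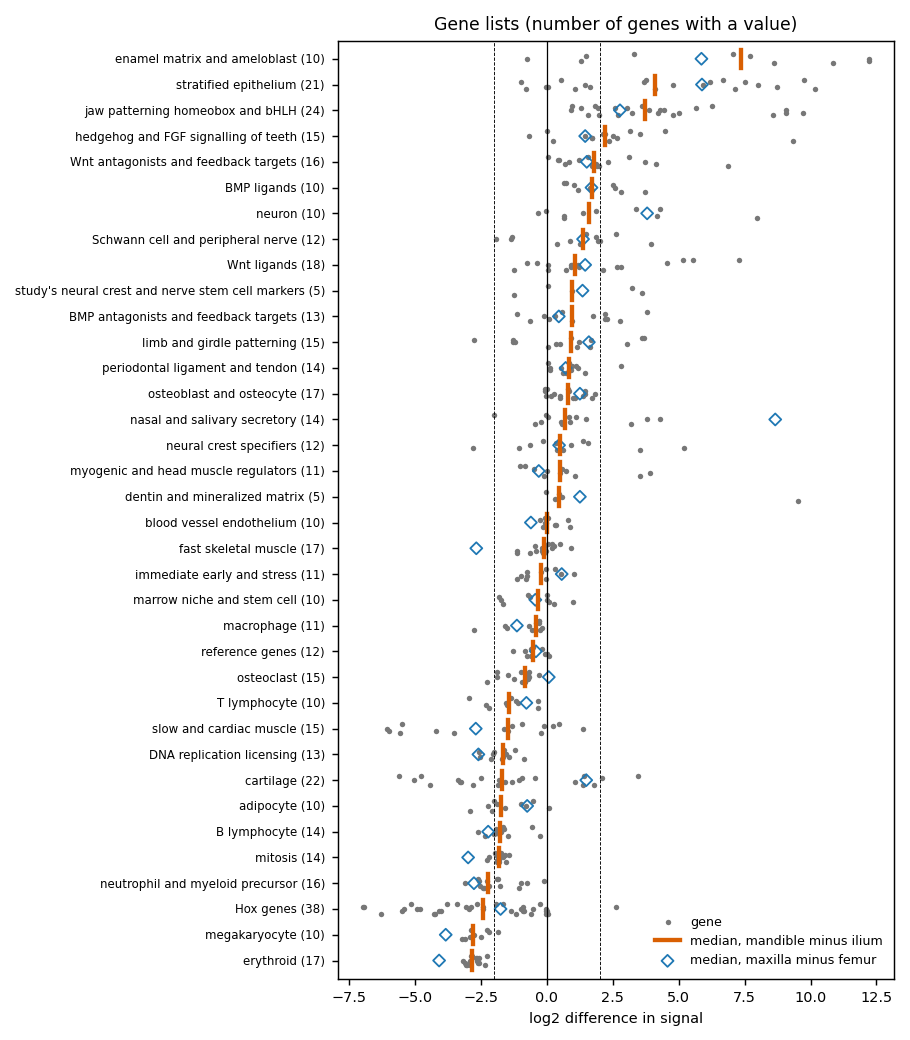
Log2 difference of each gene of 36 lists (grey points, mandible minus ilium), with the list's median (orange bar) and the median of the same genes for maxilla minus femur (blue diamond); dashed lines mark 4-fold. Enamel genes have the highest median, 7.36, and erythroid genes the lowest, -2.83, and the 2 medians of a list lie far apart for nasal and salivary genes, cartilage and fast muscle.

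Among signalling genes that teeth use between epithelium and mesenchyme, those past 4-fold were all higher in the mandible in the hedgehog and FGF, Wnt and BMP lists, but many did not reach 4-fold. Of 15 measured genes of hedgehog and FGF signalling, 13 could be counted, 9 were higher and 0 lower, with a median difference of 2.20. The ligand gene Shh was at 0.88 in the mandible and not well above background in the ilium, at least 163-fold. The genes that hedgehog signalling is known to switch on differed in the same direction. Gli1, its transcription factor, was at -5.14 in the ilium and -1.61 in the mandible, 11.5-fold. Hhip, a hedgehog-binding inhibitor, was at -4.67 and -1.52, 8.85-fold. The receptor gene Ptch1 was at least 6.33-fold higher. Fgf10, the mesenchymal ligand that maintains the incisor's stem cell niche, was at -3.24 in the mandible, at least 9.36-fold. Fgf8 ran the other way without reaching the threshold, at -2.70 and -3.36.

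Of 18 Wnt ligand genes, 17 could be counted, 7 were higher and 0 lower (median difference 1.07). Wnt3a was at 0.51 in the mandible and at least 125-fold higher, and Wnt7a at least 33.7-fold. Wnt10a, whose loss impairs tooth development, was at -1.71 and 3.83, 46.8-fold. Wnt6 was at -2.73 and 1.83, 23.6-fold. Wnt1 and Wnt9b were lower in the mandible without reaching 4-fold, at -3.48 and -4.74, and at -4.87 and -5.23. The ligand gene nearest to equal was Wnt10b, at -3.5 in the ilium and -3.48 in the mandible. Of 16 Wnt antagonists and feedback targets, 5 were higher and 0 lower (median 1.78). Sostdc1, a secreted inhibitor of Wnt and BMP signals that limits tooth number, was at -5.08 in the ilium and 1.77 in the mandible, 116-fold. Axin2, a feedback target of Wnt signalling, was at -4.72 in the mandible and at least 3.34-fold higher.

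BMP ligands gave 4 of 10 genes higher and 0 lower (median 1.69), and BMP antagonists and feedback targets 5 of 13 higher and 0 lower (median 0.95). Bmp7 was at -0.57 in the ilium and 3.14 in the mandible, 13.1-fold. Bmp4 was at -1.37 and 1.23, 6.05-fold, and Bmp2 at -3.22 and -0.40, 7.03-fold. The targets Id1 (4.63-fold), Id4 (4.80-fold) and Smad6 (4.60-fold) were higher too, whereas the extracellular antagonist genes Grem1, at -0.58 and -1.72, and Nog, at -1.92 and -2.55, had lower signal in the mandible short of 4-fold.

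Homeobox and bHLH genes that pattern the jaws were higher in the mandible without exception of sign. Of 24 genes, 23 could be counted, 17 were past 4-fold higher and 0 lower, and all 24 differences were positive by the probe used, with a median of 3.73. Dlx2, a distal-less homeobox gene of the pharyngeal arches, was at 1.53 in the mandible and not well above background in the ilium, at least 254-fold (chromosome 2, 71344335 to 71344394, mm8). Its neighbour Dlx1 was at least 93.7-fold higher. Msx2, a homeobox gene of tooth and skull formation, was at 1.96, at least 343-fold, and Lhx8, which acts in oral mesenchyme, was at 1.38, at least 230-fold. Msx1 was at -2.06 in the ilium and 2.95 in the mandible, 32.2-fold, and Barx1, a gene of the molar field, was at -5.44 and -0.66, 27.5-fold.

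Hand2, which gives the lower jaw its identity, was at -0.84 in the mandible and at least 49.4-fold above the ilium. In the maxilla it was at -4.60 and in the femur at -6.63, so the mandible had the highest Hand2 signal of the 4 bones. Probes disagreed for some genes of this list: the other probe gave 0.31 for Alx4 and 0.39 for Lhx6, against 2.59 and 2.69 for the probe used, and Prrx1, nearest to equal at 0.91, had other probes from -2.41 to 1.35. Foxf2, a forkhead gene of oral mesenchyme outside the list, was at -5.75 and 1.97, 210-fold.

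Hox genes, which give position along the trunk and limbs, ran the opposite way. Of 38 measured, 27 could be counted, 20 were lower in the mandible and 1 was higher, with a median difference of -2.44, or -1.50 with the 16 genes not seen in the mandible set to their bound and -0.71 with normexp background correction. Hoxc9 was at 0.17 in the ilium and -6.14 in the mandible, 79.5-fold lower (chromosome 15, 102812338 to 102812397, mm8). Hoxb2 was at -0.52 and -5.92, 42.5-fold lower. Hoxa10 and Hoxc6, at -1.31 and -1.40 in the ilium, were not well above background in the mandible, at least 33.9-fold and 31.9-fold lower. Hoxb7 was at least 30.7-fold lower, Hoxa9 at least 26.3-fold and Hoxc10 at least 22.3-fold. The genes lower in the mandible came from all 4 clusters, and included 3' members such as Hoxa2 (at least 3.66-fold) as well as 5' members such as Hoxa11 (at least 3.44-fold).

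In the femur Hoxc9 was at -0.23, Hoxa10 at -1.73 and Hoxc6 at -1.76, each within 0.42 of the ilium. Hoxb7 was 1.00 lower in the femur than in the ilium on the log2 scale, and Hoxb2, at -2.79 in the femur, was below the ilium by a log2 difference of 2.27. Hoxc4 did not differ between mandible and ilium, at -4.17 and -4.16. The exception in direction, Hoxb3, was 6.14-fold higher in the mandible by the probe used, while its other probe gave -5.33, so its direction depended on the probe. Hoxb8 was at least 1.15-fold lower, and its difference became 0.06 with normexp background correction.

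Genes of limb and girdle patterning did not follow the Hox genes as a list, though some were lower. Of 15, 13 could be counted, with a median of 0.92. In the mandible 3 were higher and 1 lower, where 6.33% and 4.93% of all countable genes were. At 2-fold 7 were higher and 4 lower, where 16.1% and 15.0% of all countable genes were. The 4 were Tbx18, Meis1 (2.34-fold), Meis2 (2.46-fold) and Emx2 (2.47-fold). Emx2 was not well above background in the mandible by that probe, and its other probe gave 0.60. Isl1 was at -3.23 in the ilium and 0.46 in the mandible, 12.8-fold. Tbx3 was at -0.53 and 3.08, 12.2-fold, and Pitx1, which specifies the hind limb and also acts in the mandibular arch, was at -1.75 and 1.29, 8.25-fold. The 1 gene counted as lower at 4-fold was Tbx18, at -4.74 in the ilium and at least 3.16-fold lower. Tbx4 and Tbx5 were not well above background in either bone.

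Muscle genes split in part by fibre type. Fast skeletal muscle genes were nearly level between the mandible and the ilium: of 17, 0 differed by 4-fold, and the median was -0.13, or -0.27 with median centring and 0.07 with quantile normalization. Mylpf, the fast regulatory light chain, was at 6.82 in the ilium and 6.69 in the mandible, and Ckm, muscle creatine kinase, at 5.54 and 5.35. The fast myosin gene Myh4 was at 7.79 and 6.65, 2.20-fold lower by the probe used, while its other probe gave -0.04. Actn3, the fast-fibre actinin, was at 5.58 and 4.43, 2.22-fold lower. Myh8, the perinatal myosin gene, was at 7.69 and 7.73 by its brightest probe, while its 3 other probes gave differences from 2.71 to 3.54; the fast myosin genes are near-identical in sequence, so their probes may share signal.

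Slow and cardiac isoforms were lower in the mandible in 6 of 15 genes and higher in 0, with a median of -1.47. Myl2, the slow and ventricular regulatory light chain, was at 3.70 in the ilium and -2.36 in the mandible, 66.9-fold lower (chromosome 5, 122364530 to 122365480, mm8). Myh7, the slow myosin heavy chain, was at 5.84 and 0.26, 48.0-fold lower, and its other probe gave -5.56. Myh6 was at 1.53 and -4.45, 63.3-fold lower; it lies beside Myh7 and the 2 genes are alike in sequence. The slow troponin genes Tnni1 (44.7-fold), Tnnc1 (18.7-fold) and Tnnt1 (11.6-fold) completed the set past 4-fold. Exceptions in sign were 3 genes. Mb, encoding myoglobin, was at 5.74 in the ilium and 7.10 in the mandible, 2.56-fold higher. Mybpc1 was at 2.16 and 2.63, and Casq2 at -0.5 and -0.27. Myl3, an essential light chain of slow fibres, was at 5.19 and 5.08, although its other probe gave -2.86.

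The ilium and the femur had slow muscle genes at close levels, with a median ilium minus femur difference of 0.04, and the maxilla had Myl2 at -3.53 and Myh7 at -0.91. Fast muscle genes, in contrast, were lower in the maxilla than in the femur, with a median of -2.68, and the mandible exceeded the maxilla by a median of 2.73. For the 6 slow or cardiac genes past 4-fold, mandible minus maxilla ran from -0.56 to 1.17. In the list of myogenic and head muscle regulators, 9 genes could be counted. Of these, 2 were past 4-fold higher and 0 lower, where 6.33% and 4.93% of all countable genes were. Tbx1, a T-box gene needed for branchial arch muscle, was at -1.40 in the ilium and 2.51 in the mandible, 15.0-fold. Pax3 was at -4.02 in the mandible, at least 5.43-fold. Msc, of the same list, was at -5.27 and -4.53, 1.67-fold higher. Myf5 and Tcf21 were not well above background in either bone. Where muscle was left on a bone is not stated, and its part in these differences was not tested.

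**Figure D3:**
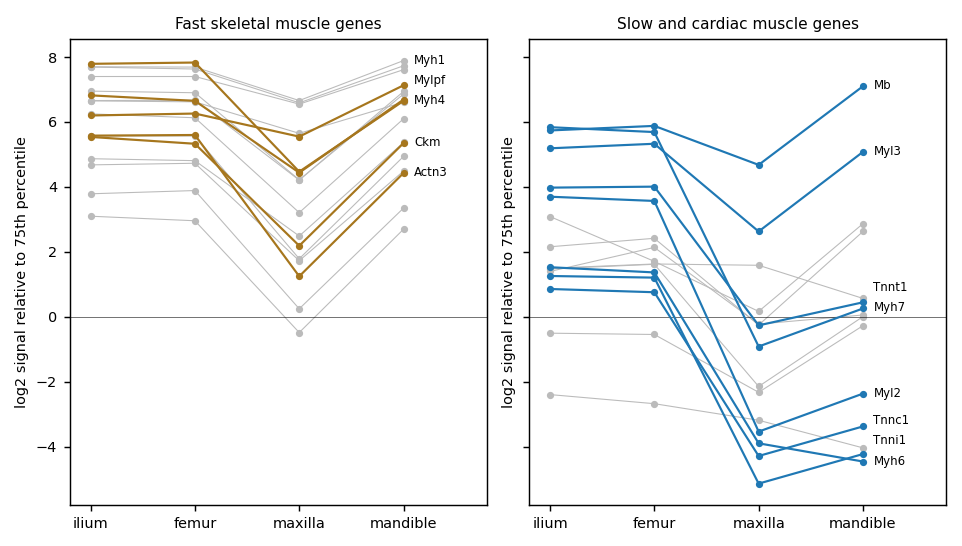
Relative signal (log2) of 17 fast (left) and 15 slow or cardiac (right) muscle genes in the 4 bones, 1 line per gene and 1 array per bone, with named genes in colour. Fast genes dip in the maxilla and not in the mandible, while Myl2, Myh6, Myh7, Tnni1, Tnnc1 and Tnnt1 are low in both jaw bones and Mb is not.

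Cartilage genes divided within the list. Of 22, 9 were lower in the mandible and 2 higher, with a median difference of -1.72, or -1.46 with bounds. The lower genes included those of hypertrophic and growth plate cartilage. Col10a1, the collagen of hypertrophic chondrocytes, was at -1.96 in the ilium and not well above background in the mandible, at least 21.7-fold lower. Ihh, the hedgehog ligand of the growth plate, was at -2.62 and -6.01, 10.5-fold lower, with -1.02 by its other probe. Matn3, a matrilin of growing cartilage, was at least 11.0-fold lower. Cytl1 was at 2.22 and -2.54, 27.1-fold lower, and Ucma, a cartilage matrix-associated protein gene, at -0.27 and -4.68, 21.3-fold lower. Snorc, a chondrocyte proteoglycan gene outside the list, was at 1.76 and -4.01, 54.7-fold lower.

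Genes of joint surface and tendon-like cartilage were lower as well: Prg4, encoding the lubricant lubricin, was at 3.20 in the ilium and -0.07 in the mandible, 9.63-fold lower, Chad 9.78-fold and Comp 6.91-fold. General cartilage matrix genes differed less. Col2a1 was at 4.45 and 2.58, 3.65-fold lower, and Acan at 0.93 and -0.39, 2.49-fold lower. In the other direction, the chondrogenic transcription factor gene Sox9, which dental epithelium also expresses, was at -1.38 in the ilium and 2.08 in the mandible, 10.9-fold, and Col9a2 was at 0.49 and 2.59, 4.29-fold. The member nearest to equal was Hapln1, at -1.30 and -1.75.

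The femur had the lowest median signal of the 4 bones in this list, -3.79, against -0.30 in the ilium, -0.95 in the maxilla and -1.36 in the mandible. The median difference of the ilium from the femur was 3.41, although at 4-fold in either direction these bones differed in 0.987% of genes overall. Cytl1 was at -3.27 in the femur and 1.16 in the maxilla, and Ucma at -5.01 and -0.45, so for both genes the femur was near the mandible and the maxilla near the ilium. Snorc was at -4.97 in the femur and -1.47 in the maxilla. For Hapln1 the femur, at -5.45, was below the other 3 bones. With the femur in place of the ilium the median of the list was 1.08 for the mandible instead of -1.72. That replacement was chosen after the values were seen. Of the 1022 genes lower in the mandible, 61 (5.97%) were 4-fold or more higher in the ilium than in the femur. Those 1022 were picked for a high ilium signal and the same ilium array is used again, so the 5.97% cannot be set against the 0.987%. How much growth cartilage each bone sample contained was not stated and was not tested.

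**Figure D4:**
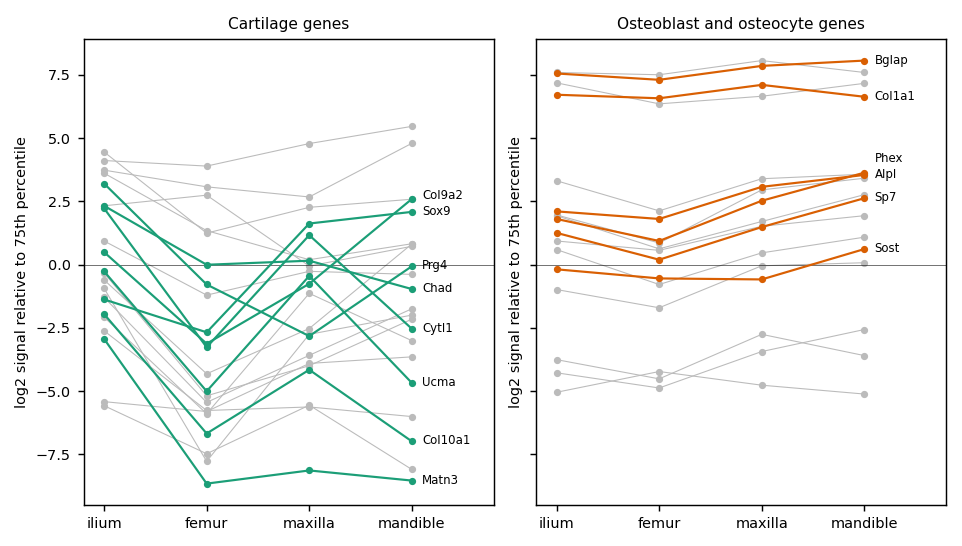
Relative signal (log2) of 22 cartilage genes (left) and 17 osteoblast and osteocyte genes (right) in the 4 bones, 1 line per gene and 1 array per bone, with named genes in colour. Cytl1, Ucma, Col10a1 and Matn3 are higher in the ilium than in the femur and the mandible, with Cytl1 and Ucma near the ilium's signal in the maxilla too, while Col1a1 and Bglap are near level in all 4 bones.

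Osteoclast genes were a little lower in the mandible than in the ilium. All 15 differences were negative, with a median of -0.84. Where 4.93% of all countable genes were 4-fold lower, 1 of the 15 was. That gene was Car2, the carbonic anhydrase that supplies acid to osteoclasts and is also abundant in red cells, at 6.13 and 3.85, 4.83-fold lower. The collagen-degrading protease gene Ctsk was at 5.13 and 4.30, and Clcn7, nearest to equal, at 1.36 and 1.05. With the femur in place of the ilium the median was 0.29.

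Blood-forming lineages were lower in the mandible. Of 17 measured erythroid genes, 17 were lower by 4-fold or more, with differences from -3.18 to -2.28 and a median of -2.83. Rhag, which encodes a Rh-associated membrane glycoprotein of red cells, was at 0.66 in the ilium and -2.52 in the mandible, 9.04-fold lower. Ermap, a red cell adhesion protein gene, was at 3.81 and 0.71, 8.54-fold lower. Kel, encoding the Kell blood group protease, was at 3.90 and 0.82, 8.42-fold lower. The erythroid regulators differed alike: Gata1 was at 1.83 and -1.09, 7.58-fold lower, and Klf1 at 2.85 and -0.07, 7.56-fold lower. The smallest gap was in Alas2, the first enzyme of red cell haem synthesis, at 7.07 and 4.79, 4.86-fold lower. The other probes of Sptb ranged from -3.27 to -0.62.

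Because the erythroid genes were lower together, the promoters of the 5 with the widest gaps that have an entry in the RefSeq promoter table (GRCm38.p6) are printed. Each line gives 120 bases up to the transcription start, 5′ to 3′ in the gene's direction. Capitals mark GATAA, the core bound by GATA factors, and CCACCC, which contains CACCC, the core of sites bound by KLF1. Both are marked on either strand (TTATC and GGGTGG in reverse), and the motifs do not overlap. CACCC after a base other than C is left unmarked, as in the Klf1 and Gata1 promoters.

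Rhag, chr17:40811029-40811148, plus strand: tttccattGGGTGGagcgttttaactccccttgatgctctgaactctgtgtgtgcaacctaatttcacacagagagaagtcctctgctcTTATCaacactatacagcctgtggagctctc

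Ermap, chr4:119189996-119190115, minus strand: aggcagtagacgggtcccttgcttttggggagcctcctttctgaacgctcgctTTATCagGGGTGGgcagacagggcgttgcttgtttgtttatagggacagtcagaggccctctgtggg

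Kel, chr6:41704326-41704445, minus strand: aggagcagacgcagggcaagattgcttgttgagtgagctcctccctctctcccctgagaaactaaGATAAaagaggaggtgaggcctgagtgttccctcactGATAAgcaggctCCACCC

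Gata1, chrX:7967911-7968030, minus strand: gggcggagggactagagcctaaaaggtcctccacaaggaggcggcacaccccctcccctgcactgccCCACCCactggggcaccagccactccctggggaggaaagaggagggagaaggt

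Klf1, chr8:84901862-84901981, plus strand: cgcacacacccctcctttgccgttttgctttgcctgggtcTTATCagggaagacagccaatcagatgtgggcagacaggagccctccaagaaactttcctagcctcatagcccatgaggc

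GATAA was present in 4 of these, at -31 in Rhag, -67 in Ermap, -80 in Klf1, and -55 and -18 in Kel, counted from the start site to the motif's first printed base. CCACCC was present in Rhag at -112, Ermap at -60, Kel at -6 and Gata1 at -53. In the 250 bases before the start, 10 of 13 erythroid promoters (12 genes) held GATAA, 76.9%, against 22.6% of all 32851 promoters, and 8 held CCACCC, 61.5% against 28.1%. For GATAA the stratified epithelium list gave 6 of 10 promoters, megakaryocyte genes 5 of 9 and mitosis genes 1 of 13. For CCACCC the stratified epithelium list, most of whose countable genes were higher in the mandible, also gave 6 of 10 (60.0%), slow and cardiac muscle 11 of 21 (52.4%) and megakaryocyte genes 1 of 9. These 2 motifs were picked after 8 motifs had been searched in 8 lists, and a match describes the letters only.

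The megakaryocyte list was close to the erythroid one. Of 10 genes, 9 were lower in the mandible and the median was -2.80. Itga2b, the platelet integrin gene, was at 1.69 in the ilium and -1.54 in the mandible, 9.36-fold lower. Pf4, nearest to equal, was at 6.06 and 4.22, 3.58-fold lower.

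Among 16 measured neutrophil and myeloid precursor genes, 9 were lower and 0 higher (median -2.24), but the genes differed widely. Prtn3, a granule protease gene, was at 1.93 in the ilium and -1.18 in the mandible, 8.61-fold lower. Csf3r, the receptor for G-CSF, was 6.07-fold lower and Elane, neutrophil elastase, 5.76-fold lower. S100a9, an abundant calcium-binding protein gene of neutrophils, differed least, at 7.87 and 7.75. S100a8 was at 7.18 and 6.20, and Camp at 5.82 and 4.75. Among other members, Cd177 was 5.96-fold lower, Lcn2 4.84-fold and Ltf 3.67-fold.

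Lymphocyte genes were lower by less. In the B lymphocyte list 3 of 14 were past 4-fold, among them Cd22 (6.17-fold) and Cd79a (4.03-fold), and the median was -1.78. In the T lymphocyte list 3 of 10 were, Cd8a (7.77-fold), Cd3d (5.04-fold) and Lck (4.61-fold), with a median of -1.44. All differences in both lists were negative. Macrophage genes were closest to level among the blood lists, with a median of -0.41. In that list 1 gene of 11 was past 4-fold lower, where 4.93% of all countable genes were. It was the scavenger receptor gene Marco, at -0.46 and -3.24, 6.85-fold lower. The complement gene C1qc was at 2.62 and 2.43.

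The list of marrow niche and blood stem cell genes, which holds genes of supporting cells and stem and progenitor genes such as Kit and Flt3, gave 0 of 10 past 4-fold and a median of -0.34. Cxcl12, the chemokine that holds blood stem cells in marrow, was at 5.30 in the ilium and 3.65 in the mandible, 3.14-fold lower, and Vcam1 was at 3.83 and 2.01, 3.55-fold lower, while the leptin receptor gene Lepr was at -1.33 and -1.34. Blood vessel endothelial genes were level, with 0 of 10 past 4-fold and a median of 0.01, which turned to -0.12 with median centring, -0.11 in the series table and -0.04 with normexp. Adipocyte genes were lower in 4 of 10 (median -1.74): Adipoq, the adiponectin gene, was at 2.95 and 0.87, 4.25-fold lower, and Cfd, encoding adipsin, at 4.37 and 2.14, 4.69-fold lower. The adipocyte median was -0.17 with the femur in place of the ilium.

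Cell division genes were lower together. All 14 mitosis genes were at least 2-fold lower in the mandible and 2 were past 4-fold, Ccnb2 (4.98 and 2.70, 4.85-fold) and Plk1 (3.66 and 1.47, 4.55-fold), with a median of -1.83. Of 13 replication licensing genes, 5 were past 4-fold, led by Orc1 (6.04-fold) and Cdc6 (5.81-fold), with a median of -1.66. Genes of dividing cells in general and the erythroid, megakaryocyte and myeloid lists were thus lower in the same array, and the part of marrow content in the division genes was not tested.

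Nerve and neural crest genes gave a mixed result. Of the study's 5 PCR markers, 2 were past 4-fold higher in the mandible. Nes, encoding the intermediate filament nestin, was at 0.22 in the ilium and 3.44 in the mandible, 9.31-fold. Ngfr, the p75 neurotrophin receptor gene, was at -2.84 and 0.77, 12.2-fold, although its other probe gave 0.53. Sox10 was at -3.41 and -2.45, 1.94-fold higher. Msi1 was level at -1.59 and -1.56, while its other probe gave 2.77. Wnt1 was lower in the mandible, at -3.48 and -4.74, 2.39-fold. Gapdh, the study's PCR control, was at 6.47 and 5.86, 1.52-fold lower, so a ratio to Gapdh would add 0.61 to each log2 difference.

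Of 12 neural crest specifier genes, 2 were higher and 1 lower (median 0.51), where 6.33% and 4.93% of all countable genes were. Twist2 was at -3.91 and 1.29, 36.9-fold higher, and Pax3 is given above with the muscle regulators. Zic1 was at -3.02 and -5.83, 7.04-fold lower. Foxd3, a marker of early crest, was at -5.43 and -4.52. In the Schwann cell list 3 of 12 genes were higher and 0 lower (median 1.38), with S100b at 1.43 and 3.44, 4.02-fold, and Gldn at least 7.29-fold. At 2-fold 7 genes of this list were higher and 3 lower, where 16.1% and 15.0% of all countable genes were. Cnp was at 2.54 and 1.22, 2.49-fold lower, and Mag at 0.91 and -0.45, 2.57-fold lower, with -0.15 by its other probe. The myelin gene Mbp was at 2.64 and 0.71 by its brightest probe, with 2.11 to 2.46 by its other probes. In the neuron list 4 of 10 were higher and 0 lower (median 1.60). Nefl, a neurofilament gene, was at -0.03 in the mandible and at least 86.3-fold higher, and Tubb3, neuronal tubulin, was at -1.53 and 1.83, 10.3-fold. Bex2 (-5.36 and 2.58, 244-fold) and the neuropeptide gene Nts (-4.60 and 2.98, 192-fold) were among the 12 widest gaps measured in both bones.

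Among other single genes, Fxyd4, an ion transport regulator gene, was at 1.74 in the mandible and at least 259-fold higher, where the ilium signal was not well above background but was brighter than the lowest signal that was, so the bound equals the measured ratio. Lower in the mandible were Kif12 (0.63 and -4.90, 46.0-fold, but 0.12 by its other probe), Duox2, an oxidase gene that makes hydrogen peroxide (1.79 and -3.35, 35.3-fold), Fbxw18 (at least 13.0-fold) and Epha6 (at least 12-fold). Immediate early genes, which can change while tissue is collected, gave 0 of 11 past 4-fold and a median of -0.22. Of 12 reference genes 0 were past 4-fold, and their median was -0.54, with Rplp0 at 6.66 and 6.65 and B2m, the widest, at 4.55 and 3.27.

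The maxilla and the femur, which share no array with this comparison, give a second pair of a jaw bone and a bone of the trunk or limb; bones of a class are not replicates of each other. There 2822 genes (13.0%) were higher in the maxilla and 1632 (7.49%) lower. Of the genes higher in the mandible, 821 were also higher in the maxilla, which is 62.6% of the mandible's list and 29.1% of the maxilla's. Of the genes lower, 651 were shared, 63.7% and 39.9%. At 4-fold, 0 genes were higher in the mandible than the ilium and lower in the maxilla than the femur, and 37 were lower in the mandible and higher in the maxilla. The mandible and the maxilla themselves differed by 4-fold in 11.5% of countable genes, in either direction. Of the genes higher in the mandible than the ilium, 241 (18.4%) were also 4-fold higher in the mandible than in the maxilla. These genes were picked for a high mandible signal and the same mandible array is used again, so the 18.4% cannot be set against the 11.5%.

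Several dental genes were brighter in the mandible than in the maxilla. Shh was at 0.88 in the mandible and -3.30 in the maxilla, Dlx1 at 0.09 and -2.77, Enam at 3.48 and 0.51, and Amtn at -0.07 and -3.31, whereas Odam was dimmer, at -1.19 against 2.97. By measured signals the gap to the ilium most exceeded the gap of maxilla to femur in Vwa2, Synpr, Dlx1, Amtn, Hdnr and the non-coding RNA gene Xist. All 6 lacked the detection flag in the ilium and in the femur, and Hdnr and Xist lacked it in the maxilla as well, so this ranking rests partly on signals at background. The mandible exceeded the ilium by at least 102-fold for Vwa2, 37.9-fold for Synpr, 13.9-fold for Hdnr and 2.61-fold for Xist.

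Of the 36 lists, nasal and salivary secretory genes had the medians of the pairs farthest apart. In the mandible 3 of 14 were higher than in the ilium and 1 lower, where 6.33% and 4.93% of all countable genes were. The list's median was 0.70, while for maxilla minus femur it was 8.66. Obp1a, an odorant-binding protein gene, was at 4.04 in the maxilla and not well above background in the mandible, the ilium or the femur. Mucl2, Smr3a and Dcpp1, gland secretion genes, exceeded the ilium by at least 5.09-, 3.87- and 2.19-fold, with mandible signals of -4.12, -4.51 and -5.33, where the lowest signal well above background was -6.40.

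**Figure D5:**
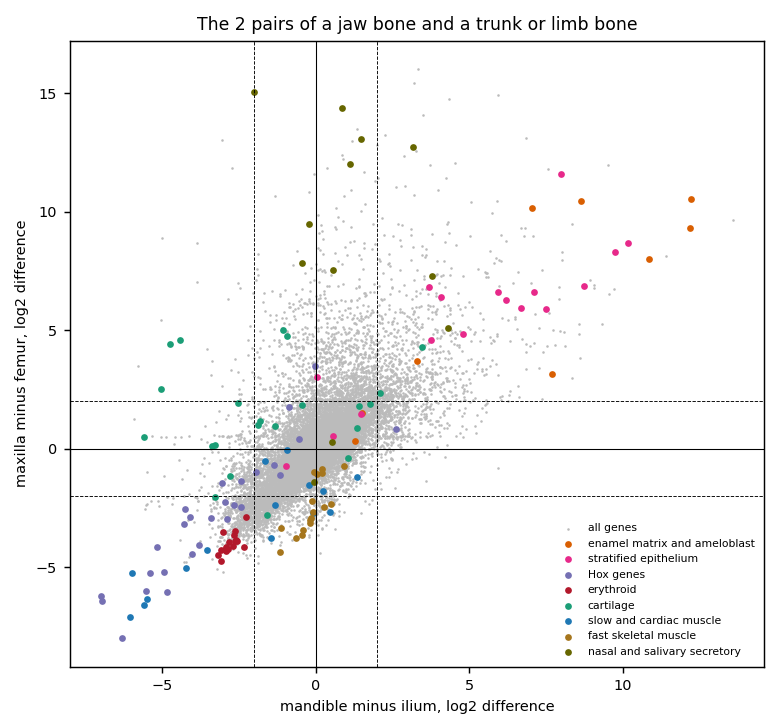
Log2 difference mandible minus ilium (x axis) against maxilla minus femur (y axis) for genes well above background in the mandible or the ilium, with 8 gene lists in colour and dashed lines at 4-fold. Fast muscle genes lie near 0 on the x axis and below 0 on the y axis, nasal and salivary genes mostly rise along the y axis alone, and several cartilage genes fall left of 0 and above 0.

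The 5 genes just inside the 4-fold limit were Sh3rf1, Ear1, Lrmp, Cyp2d22 and Cd7, and the 5 just outside were Ifi47, Hp, Dchs1, Klra9 and Srd5a1, with folds between 3.99 and 4.01. Of 6621 genes with several probes well above background in both bones, 418 were past 4-fold, and in 349 of those every other probe was past 2-fold in the same direction.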

How the data were processed

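Arrays had 1 colour (Cyanine 3). The deposited files hold spot intensity from Agilent Feature Extraction 9.5.3.1, background-subtracted by the authors' software per the file headers; the array design uses mouse build mm8. The deposited series table holds log2 values, per the labels' series description made with GeneSpring; each column matched log2 of an array over the ilium array plus a constant, whose origin is not given in the sources used here. Between 72.8% and 75.5% of 43379 spots were well above background and 0 were saturated. All 4 arrays lay on 1 slide with 1 scan time, so array position and bone cannot be told apart.

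Outlier spots were left out, remaining spots of a probe averaged, and the probe with the highest mean over the 4 arrays stood for a gene. Of 41174 probes, 24375 were named by accession, 6301 by current and 2426 by older symbols (RefSeq, GRCm38.p6), and 8072 kept the file's name. Scripts used Python 3.11.15, pandas 2.3.3, numpy 2.4.6 and, for normexp and quantile normalization, limma 3.58.1 in R 4.3.3, and were tested on simulated data. Having 1 array per bone limits the precision.

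The members and the 36 gene lists were chosen with earlier results of these data known; Hoxc11, Ahsp, Cebpe, Fgf4 and Hspa1b had no value. Named were the 12 widest measured gaps and 8 largest bounds in each direction, up to 4 members past 4-fold per list with the member nearest 0, the 6 genes each way most unlike maxilla against femur, and the PCR markers, leaving out predicted genes and clones. Some genes that this rule names are not reported here. Any other gene named was chosen after its values were seen. The closing section gives the 11 alternatives.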

Additional observations from a re-analysis of the deposited data

Results flagged for a closer look

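A few results ran in opposite directions in the pairs mandible and ilium, and maxilla and femur. With 1 array per bone the difference between the pairs was not tested.

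Of the genes lower in the mandible than in the ilium, 37 were 4-fold or more higher in the maxilla than in the femur, and the 5 with the widest contrast follow. Bpifa1, a secreted airway protein gene, was at -1.86 in the ilium, -3.86 in the mandible and 7.33 in the maxilla, and not well above background in the femur; mandible minus ilium was -2.0. Mup1, a major urinary protein gene, gave -5.00 for mandible minus ilium and 8.90 for maxilla minus femur, and Serpina1d, an alpha-1-antitrypsin gene, gave -3.88 and 8.67, with all 4 signals of both genes well above background. Mup5 and Mup6 gave -2.73 and -3.06 for mandible minus ilium, but neither was well above background in the mandible, so the supported gaps are at least 2.59-fold and 1.69-fold, short of 4-fold; Mup6 was not well above background in the femur either. Their maxilla signals were 5.71 and 4.22. Serpina1b, named by the same comparison, was not well above background in the mandible or the femur and was at least 3.78-fold lower in the mandible. Mup and Serpina1 genes have near-identical copies, so their probes may share signal.

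The cartilage list had a median of -1.72 for mandible minus ilium and 1.49 for maxilla minus femur. The femur had the lowest median signal of the 4 bones in this list, -3.79.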

How the results depend on the processing

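Normexp background correction gave 548 genes higher and 457 lower in place of 1312 and 1022, and asking for a signal well above background in both bones, which removes genes unseen in the dimmer bone by construction, gave 799 higher. The femur in place of the ilium, added after seeing the data, gave 1582 lower. The counts stayed within 1.5 times under the other alternatives: quantile normalization, median centring, the deposited series table, other outlier rules, the median over probes, the brightest probe of these 2 arrays, no background filter, and the lowest signal well above background for the dimmer bone. The share of calls higher in the mandible ran from 48.3% to 56.3%. Of 204 named genes past 4-fold, 152 stayed so with normexp. Normexp added an offset of 50 to every signal, where the median processed signal was 129.8 in the ilium and 142.9 in the mandible. Adding a constant draws log2 differences between low signals toward 0 by construction. Hoxb3 reversed to -1.35 with the median over probes, its 2 probes giving 2.62 and -5.33. Hoxb8 reversed to 0.06 with normexp, and the cause of that change of sign was not tested. Quantile normalization turned the sign of the fast muscle median, and median centring, normexp and the series table that of endothelium; the other list medians kept theirs under all 11 alternatives other than the femur. Sizes moved more. Normexp moved the median of the Hox list from -2.44 to -0.71, of enamel genes from 7.36 to 3.47, of nasal and salivary genes from 0.70 to 0.28, of Wnt ligands from 1.07 to 0.60, of neuron genes from 1.60 to 0.94 and of adipocyte genes from -1.74 to -1.15. With a signal well above background in both bones the Hox median was -1.35 and the neuron median 0.64. Leaving out probes with an outlier spot moved the median of myogenic and head muscle regulators from 0.49 to 0.02. The median over probes moved osteoblast genes from 0.80 to 0.50 and macrophage genes from -0.41 to -0.67. No paired analysis was possible because each bone has 1 array, and for the same reason no replicate could be left out.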
